A study of Mus musculus with 9 samples.

Results

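The comparison described here is that of livers from mice injected with AdipoRonPEG5 with livers from mice injected with vehicle. It comprises 6 of the 9 RNA-seq libraries of the series, chosen by their treatment labels: 3 labelled AdipoRonPEG5 and 3 labelled vehicle, which was PBS. All were liver total RNA of C57BL/6 mice, taken after 5 days with 2 injections a day. A single sentence of the labels states 5 mg/kg for PBS and for the compounds alike, so the dose that the AdipoRonPEG5 mice received cannot be settled. The other 3 libraries, from mice given AdipoRon at the same stated dose and times, entered the fit and served to show where AdipoRonPEG5 livers differed from those given the parent compound. The labels give no genotype beyond the strain, no sex, age or diet, and do not say that the libraries of a group came from separate animals. If they did not, the tests below measure technical spread only. The title of the series speaks of insulin-deficient mice and of a high fat diet, and whether either state applied to these livers is not settled by the labels.

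Adiponectin is a hormone secreted by fat cells. It signals through the receptors AdipoR1 and AdipoR2, which act on fatty acid oxidation, ceramide breakdown and glucose output, and AdipoR2 is the form known for its abundance in liver. AdipoRon is an orally active small-molecule agonist of both receptors, and AdipoRonPEG5 is, by its name and the title of the series, an analog of AdipoRon that carries polyethylene glycol (PEG). The liver is mostly hepatocytes, which make plasma proteins, run intermediary metabolism and detoxify foreign compounds in sequential steps of oxidation, conjugation and export. Kupffer cells, the resident macrophages of the sinusoids, take up particles and debris from the blood.

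Each library held between 13942322 and 18508950 counted reads, except vehicle 1 with 39473195. A floor of 3 counts corresponded to 0.076 to 0.215 CPM, which is the count scaled to the library total. The 10 leading genes held 15.5% to 17.6% of the reads of a library. Vehicle 3 and AdipoRonPEG5 1 stood apart from the other libraries of their groups in acute phase genes. The serum amyloid gene Saa1 was at 4959 CPM in vehicle 3 against 45.4 and 45.1 CPM in vehicle 1 and 2, and at 1952 CPM in AdipoRonPEG5 1 against 207 and 173 CPM in AdipoRonPEG5 2 and 3. Results that depend on either library are given with their value without it. The hepatocyte markers fixed for the tissue summed to 113562 to 124799.7 CPM with vehicle and 100882 to 111680.1 CPM with AdipoRonPEG5, so every library carried the markers of the labelled tissue.

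With AdipoRonPEG5, 12 of 22 tested (of 25 listed) glutathione transferase genes rose, as did both ferritin chains and 10 of 27 tested antioxidant genes. Among other conjugating enzymes, 7 of 19 tested (of 23 listed) glucuronosyltransferase genes rose and 4 of 9 tested (of 21 listed) sulfotransferase genes fell. Rises also included 15 of 16 Kupffer cell markers and 16 of 16 tested (of 18 listed) interferon-inducible GTPases. Falls included 10 of 30 tested genes of one-carbon metabolism, 5 of 13 hepatocyte markers and 5 major urinary protein genes listed as male-biased. The library omissions that move these counts are given with each list below. A fit with the replicate number as a block is left out there and is given near the end. The counts below give the share of all genes against which each list can be read.

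Of 35275 table entries, 13151 had enough counts to be tested in the fit over all 9 libraries (edgeR's quasi-likelihood test, Benjamini-Hochberg adjusted p at most 0.05). Genes scarce with vehicle could pass this filter through the treated livers alone, which favours rises among such genes. In AdipoRonPEG5 livers 1256 genes rose (9.55% of those tested) and 1004 fell (7.63%), so that 17.2% changed. The rises were larger: 585 genes rose at least 2-fold (4.45%) and 172 fell at least 2-fold (1.31%), and 139 rose at least 4-fold (1.06%) against 28 that fell by as much (0.213%). Among the 1446 genes with a mean of at least 100 CPM the balance was the other way, with 90 rises and 248 falls. The 3 AdipoRonPEG5 values lay wholly above the 3 vehicle values for 18.2% of the tested genes and wholly below for 17.0%. Genes picked below for the size of their difference or fold had to lack overlap. In them the lack of overlap was a condition of that choice and not a separate result. With total-count scaling in place of TMM, 1700 genes rose and 584 fell, which took the share of rises among the calls from 55.6% to 74.4%. The counts were 800 rises and 537 falls without vehicle 2, 812 and 536 without AdipoRonPEG5 2, and 842 and 596 without AdipoRonPEG5 3.

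**Figure D1:**
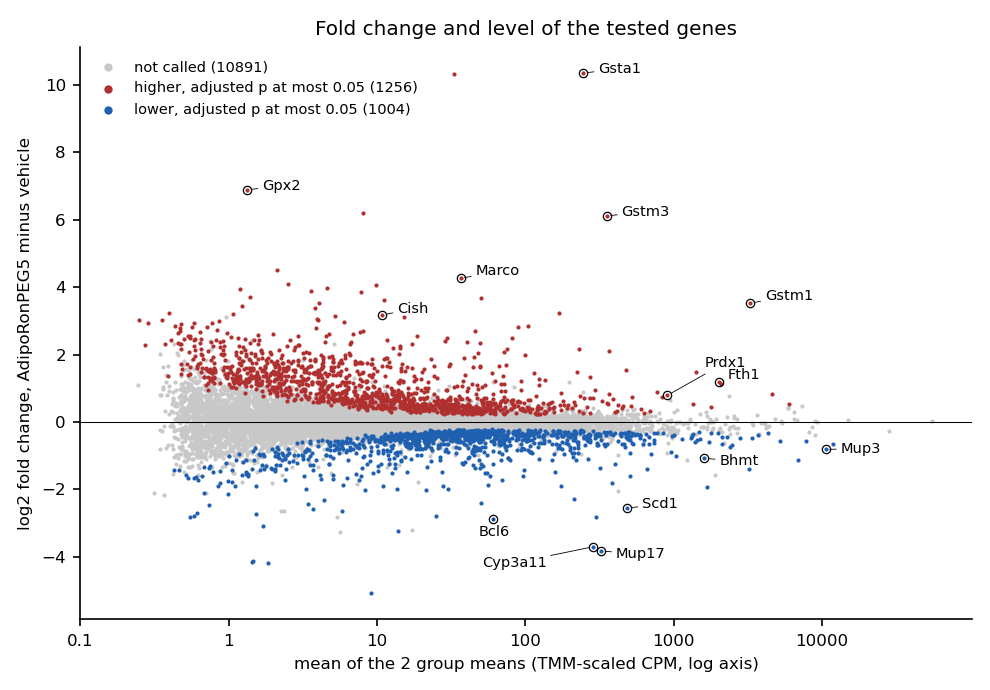
Each point is 1 of the 13151 tested genes, with the mean of the vehicle and AdipoRonPEG5 group means (TMM-scaled CPM, log axis) on the horizontal axis and the log2 fold change of AdipoRonPEG5 against vehicle on the vertical axis. Red points are the 1256 rises and blue points the 1004 falls, and ringed genes have their name beside them: Gsta1, Gstm3 and Gstm1 lie far above most genes of their level.

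Levels below are TMM-scaled CPM in replicates 1, 2 and 3 of a group, in that order. The counts used here do not correct for gene length, so levels are compared between groups and not between genes. Fold changes are log2 values of AdipoRonPEG5 against vehicle with their standard error, and p-values are Benjamini-Hochberg adjusted over the 13151 genes.

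Of the 2 adiponectin receptors, the messenger RNA of AdipoR2 fell and that of AdipoR1 did not pass the test. Adipor2 was at 504, 465 and 530.4 CPM with vehicle and 383, 361 and 384 CPM with AdipoRonPEG5, so that the groups did not overlap (log2 fold change -0.41, SE 0.083, adjusted p = 0.00767). Adipor1 was at 96.7, 88.2 and 95.4 CPM with vehicle and 93.2, 99.7 and 119 CPM with AdipoRonPEG5, with overlapping groups (log2 fold change 0.15, SE 0.10, adjusted p = 0.329). Of 24 tested (of 28 listed) genes among the receptors, their relatives of the PAQR family and the kinases that act downstream, 2 rose and 2 fell. These counts are near the shares over all tested genes, 9.55% higher and 7.63% lower, so the list as a whole did not stand out. The rises were Mmd, a PAQR family member (0.41 ± 0.11), and Prkaa2, a catalytic subunit of the AMP-activated kinase (0.26 ± 0.077). Both were small: the call of Mmd ended without vehicle 2 or 3 or AdipoRonPEG5 1 or 3, or without both vehicle 3 and AdipoRonPEG5 1, with adjusted p from 0.0532 to 0.1002. Likewise, the call of Prkaa2 ended without vehicle 2 or 3, AdipoRon 3 or AdipoRonPEG5 1, 2 or 3, or without both vehicle 3 and AdipoRonPEG5 1, or with no filter, only the 2 groups compared or vehicle 1 thinned, with adjusted p from 0.0558 to 0.150. The number of rises was 0 without vehicle 2 or 3 or AdipoRonPEG5 1 or 3, or without both vehicle 3 and AdipoRonPEG5 1, and 1 without AdipoRon 3 or AdipoRonPEG5 2, or with no filter, only the 2 groups compared or vehicle 1 thinned. The number of falls was 1 without vehicle 1 or AdipoRonPEG5 1 or 3.

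The glutathione transferases, which attach glutathione to electrophiles and so make them exportable, included the largest rise of the comparison, that of Gsta1. Of 22 tested (of 25 listed) transferase genes 12 rose, 3 fell and 7 did not pass, and their median log2 fold change was 0.71, against -0.0013 over all tested genes. Their summed level was 7368 to 8122 CPM with vehicle, 15545 to 16646 CPM with AdipoRonPEG5 and 7510.3 to 7609 CPM with AdipoRon. The transferase falls numbered 1 without AdipoRonPEG5 2 or 3, or with total-count scaling.

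Within the mu class, Gstm1 was at 619.6, 569 and 379 CPM with vehicle and 5821, 5756 and 6441 CPM with AdipoRonPEG5 (log2 fold change 3.52, SE 0.20, adjusted p = 7.37e-06). Gstm2 was at 24.5, 23.2 and 18.8 CPM with vehicle and 168, 143 and 158 CPM with AdipoRonPEG5 (log2 fold change 2.81, SE 0.14, adjusted p = 2.32e-06). Gstm4 was at 29.5, 23.8 and 21.3 CPM with vehicle and 167, 164 and 217 CPM with AdipoRonPEG5 (log2 fold change 2.86, SE 0.17, adjusted p = 8.96e-06). All 3 were several-fold higher in every AdipoRonPEG5 library than in any vehicle library. Gstm3 was at 11.9, 8.89 and 8.85 CPM with vehicle and 747, 683 and 659 CPM with AdipoRonPEG5, the largest rise of this class (6.12 ± 0.16). Gsta1, of the alpha class, was almost silent in vehicle livers, at 21, 3 and 1 counts or 0.540, 0.224 and 0.0744 CPM, and reached 504, 437 and 532 CPM (10.36 ± 0.29). That fold rests on the few vehicle counts: the log2 fold change of Gsta1 was 11.61 without vehicle 1. Gstp2, a pi-class member, was at 1.03, 0.747 and 1.64 CPM with vehicle and 10.7, 19.9 and 24.97 CPM with AdipoRonPEG5 (4.05 ± 0.38).

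Against AdipoRon livers the same transferases were higher too. The log2 difference between the compounds was 3.44 (95% confidence interval 2.99 to 3.89) for Gstm1, with AdipoRon at 592, 433 and 637 CPM. It was 5.11 (95% confidence interval 4.77 to 5.45) for Gstm3 and 3.02 (95% confidence interval 2.24 to 3.80) for Gstp2, and the calls of all 3 held in every alternative run. In the opposite direction, Gstk1, the kappa-class enzyme of mitochondria and peroxisomes, fell from 150.2, 131 and 121 CPM to 79.2, 80.9 and 85.03 CPM (log2 fold change -0.71, SE 0.11, adjusted p = 0.00242). The Gstm genes are close paralogs, as are Gsta1 and its neighbours, and the sources used here do not give how reads matching several copies were counted.

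Of 22 tested (of 25 listed) genes that make, recycle or spend glutathione, 6 rose and 1 fell. Gpx2, a glutathione peroxidase best known from gut epithelium, had 0, 0 and 1 counts in vehicle livers and none in the AdipoRon livers. It had 38, 50 and 48 counts in AdipoRonPEG5 livers, or 2.34, 2.596 and 2.96 CPM. The ratio of the summed counts, scaled by library, was 173 with an exact 95% interval of 30.5 to 6879, which covers counting error only. Gpx4, which reduces lipid hydroperoxides in membranes, was at 272, 255 and 251 CPM with vehicle and 404, 408 and 379.5 CPM with AdipoRonPEG5 (log2 fold change 0.62, SE 0.085, adjusted p = 0.00118). Oplah, the 5-oxoprolinase that returns glutamate to the glutathione cycle, was at 134, 143 and 148 CPM with vehicle and 216, 202 and 239 CPM with AdipoRonPEG5 (0.63 ± 0.088). Ggt6, of the gamma-glutamyltransferase family, was at 14.0, 14.3 and 12.1 CPM with vehicle and 26.7, 24.6 and 26.2 CPM with AdipoRonPEG5 (0.93 ± 0.12). In these 3 genes no vehicle value reached the lowest AdipoRonPEG5 value. The single fall was that of Gpx6, at 1.67, 0.448 and 0.669 CPM with vehicle and 0.494, 0.208 and 0.247 CPM with AdipoRonPEG5, where 1 AdipoRonPEG5 library lay above 1 vehicle library (-1.73 ± 0.54). This call is weak: the call of Gpx6 ended without vehicle 1, AdipoRon 1, 2 or 3 or AdipoRonPEG5 1, 2 or 3, or with total-count scaling, DESeq2, limma-voom, vehicle 1 thinned or a gene length trend removed, with adjusted p from 0.0506 to 0.337, and the log2 fold change of Gpx6 was -0.83 without vehicle 1 and -2.37 without both vehicle 3 and AdipoRonPEG5 1. The list's falls numbered 0 without vehicle 1, AdipoRon 1, 2 or 3 or AdipoRonPEG5 1, 2 or 3, or with total-count scaling, only genes over 1 CPM, DESeq2, limma-voom, only the 2 groups compared, vehicle 1 thinned or a gene length trend removed.

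Of 27 tested thioredoxin, peroxiredoxin, heme oxygenase and related antioxidant genes, 10 rose and 0 fell, with a median log2 fold change of 0.13. Falls numbered 1 without vehicle 3, or without both vehicle 3 and AdipoRonPEG5 1, or with RLE size factors, DESeq2 or limma-voom. Prdx1, a peroxiredoxin that reduces hydrogen peroxide with electrons from thioredoxin, was at 654, 638 and 697 CPM with vehicle and 1145, 1161 and 1124 CPM with AdipoRonPEG5 (log2 fold change 0.79, SE 0.080, adjusted p = 0.000281). Its electron donor Txn1 was at 218, 224 and 215 CPM with vehicle and 363, 341 and 362 CPM with AdipoRonPEG5 (log2 fold change 0.70, SE 0.071, adjusted p = 0.000281). Blvrb, a biliverdin reductase, was at 124, 127 and 99.3 CPM with vehicle and 331, 317 and 337 CPM with AdipoRonPEG5 (log2 fold change 1.49, SE 0.10, adjusted p = 2.01e-05). In these genes the libraries of a group lay close together and the groups were well apart, as the plot of 12 genes by library shows for Prdx1 and Blvrb. Osgin1, a gene induced by oxidative stress, was at 74.4, 71.9 and 109 CPM with vehicle and 372, 431 and 330.5 CPM with AdipoRonPEG5 (log2 fold change 2.15, SE 0.24, adjusted p = 0.000423). Hmox1, the inducible heme oxygenase, was at 7.92, 7.92 and 6.84 CPM with vehicle and 17.2, 17.4 and 30.2 CPM with AdipoRonPEG5 (log2 fold change 1.503, SE 0.23, adjusted p = 0.00180).

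Not all of these rises set AdipoRonPEG5 apart from the parent compound. Prdx1 was at 622, 646 and 649.9 CPM in AdipoRon livers, and its log2 difference between the compounds was 0.84 (95% confidence interval 0.66 to 1.02). Those of Txn1 and Blvrb were 0.71 (95% confidence interval 0.55 to 0.87) and 1.42 (95% confidence interval 1.1996 to 1.65), and all 3 were called in every alternative run. Hmox1, by contrast, was at 21.2, 15.6 and 14.4 CPM with AdipoRon, and its difference of 0.33 (95% confidence interval -0.14 to 0.81) did not pass (adjusted p = 0.402).

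Among 11 tested enzymes that supply NADPH, the reductant of the glutathione and thioredoxin systems, 3 rose and 0 fell (with rises 5 without vehicle 3). G6pdx, which opens the oxidative pentose phosphate pathway, was at 2.57, 2.99 and 2.98 CPM with vehicle and 4.69, 5.19 and 4.99 CPM with AdipoRonPEG5 (0.82 ± 0.15). Pgd, the next oxidative enzyme, was at 30.3, 27.7 and 33.5 CPM with vehicle and 46.6, 49.1 and 53.8 CPM with AdipoRonPEG5 (0.71 ± 0.12). Tkt, a transketolase of the return branch, was at 129, 119 and 102.7 CPM with vehicle and 149, 165 and 192 CPM with AdipoRonPEG5 (0.52 ± 0.11). The groups did not overlap in any of the 3.

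Many genes of this kind are known to carry an antioxidant response element, the site of the factor NRF2. Promoter windows of RefSeq (build GRCm38.p6, 250 bases before to 50 after a start) could be matched to 9615 tested genes, or 73.1%. The core of the element, TGACNNNGC on either strand, was found in 16.9% of these genes, in 17.7% of the rises and in 18.8% of the falls. It was found in 0 of 11 transferase genes that rose and in 2 of 8 genes that rose in the thioredoxin and antioxidant list. A match is only a description of the letters, and an element outside the window would be missed. The stretches before the start of Prdx1 and of the exporter gene Abcc4 are shown because both genes rose and both hold a match, which is in capitals, 133 and 23 bases before the start. Both are written 5′ to 3′ in the sense of the gene, from chr4:116685446-116685494 on the plus strand and chr14:118676932-118676974 on the minus strand.
Prdx1: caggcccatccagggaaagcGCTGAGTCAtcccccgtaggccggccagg
Abcc4: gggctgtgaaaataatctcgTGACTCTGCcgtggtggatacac

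Enzymes that reduce or hydrolyse foreign compounds were among the rises. Ephx1, the microsomal epoxide hydrolase, was at 297, 264 and 164 CPM with vehicle and 621, 678 and 818 CPM with AdipoRonPEG5 (log2 fold change 1.54, SE 0.21, adjusted p = 0.00114). Cbr1, a carbonyl reductase, was at 88.3, 87.7 and 59.7 CPM with vehicle and 158, 171 and 175 CPM with AdipoRonPEG5 (log2 fold change 1.09, SE 0.13, adjusted p = 0.000591). Cbr3, a second carbonyl reductase, was at 0.411, 0.673 and 0.298 CPM with vehicle and 5.43, 7.01 and 7.65 CPM with AdipoRonPEG5 (log2 fold change 3.89, SE 0.27, adjusted p = 2.24e-05). None of the 3 overlapped, and each was also higher than with AdipoRon, with log2 differences of 1.40 (95% confidence interval 0.93 to 1.86), 1.27 (95% confidence interval 0.98 to 1.56) and 3.18 (95% confidence interval 2.61 to 3.74) that were called in every alternative run. Of 16 tested (of 20 listed) aldo-keto and carbonyl reductases 7 rose and 0 fell; the rises were 3 without vehicle 2, and 4 without AdipoRonPEG5 2, and the falls were 1 without vehicle 3.

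Of 19 tested (of 23 listed) genes for UDP-glucuronosyltransferases, which attach glucuronic acid, and for the supply of its donor, 7 rose and 2 fell. Ugt2b5 was at 607, 584 and 424 CPM with vehicle and 943, 1042 and 1019 CPM with AdipoRonPEG5 (0.90 ± 0.13). Ugt2b34 was at 405, 406 and 361 CPM with vehicle and 614, 651 and 696 CPM with AdipoRonPEG5 (0.74 ± 0.089). Ugt2b35 was at 51.7, 45.4 and 36.3 CPM with vehicle and 80.3, 106 and 109 CPM with AdipoRonPEG5 (1.14 ± 0.14). All 3 belong to the Ugt2b family, whose members are similar in sequence, and none overlapped between the groups. The number of rises was 4 without vehicle 3 or AdipoRonPEG5 2 or 3, or without both vehicle 3 and AdipoRonPEG5 1. That of falls was 0 without vehicle 2 or AdipoRonPEG5 2, or with total-count scaling, 1 without vehicle 1 or AdipoRonPEG5 1 or 3, or with only the 2 groups compared, and 4 without vehicle 3.

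The sulfotransferases, which attach sulfate, had more falls than rises. Of 9 tested (of 21 listed) genes of this family and of sulfate donor synthesis, 1 rose and 4 fell, with a median log2 fold change of -0.36. Their summed level was 1376 to 1718 CPM with vehicle and 1053 to 1105 CPM with AdipoRonPEG5. 2810007J24Rik, listed as Sult2a8, was at 909, 961 and 804 CPM with vehicle and 594, 587 and 564 CPM with AdipoRonPEG5 (log2 fold change -0.62, SE 0.091, adjusted p = 0.00165). Sult1a1, which acts on phenols, was at 306, 361 and 260.2 CPM with vehicle and 205, 187 and 190.4 CPM with AdipoRonPEG5 (-0.67 ± 0.15); the call of Sult1a1 ended without vehicle 2 or AdipoRonPEG5 2, with adjusted p from 0.0523 to 0.0524. The groups did not overlap in either gene. Sult2a7 rose, at 3.06, 1.27 and 1.49 CPM with vehicle and 8.02, 4.72 and 7.03 CPM with AdipoRonPEG5 (1.64 ± 0.33), and the log2 fold change of Sult2a7 was 2.24 without vehicle 1. The falls of the family numbered 1 without vehicle 2, and 2 without vehicle 1 or AdipoRonPEG5 3. Its rises numbered 2 with no filter.

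The aldehyde dehydrogenases included 4 rises among 16 tested (of 19 listed) genes. Aldh1a1, which oxidizes retinal and other aldehydes, was at 1675, 1348 and 881 CPM with vehicle and 2802, 2791 and 3011 CPM with AdipoRonPEG5 (log2 fold change 1.14, SE 0.21, adjusted p = 0.00499). Aldh3b1 was at 2.01, 1.94 and 2.08 CPM with vehicle and 4.57, 6.07 and 6.10 CPM with AdipoRonPEG5 (1.47 ± 0.24). Aox1, the aldehyde oxidase, was at 89.5, 77.7 and 48.3 CPM with vehicle and 157, 182 and 188 CPM with AdipoRonPEG5 (1.28 ± 0.19). In Aldh1a1 and Aox1 vehicle 3 was the lowest library, and both stayed called without it. The list also had 1 fall, a number that was 0 without vehicle 1 or AdipoRonPEG5 2 or 3, or with total-count scaling, 2 without vehicle 2, or without both vehicle 3 and AdipoRonPEG5 1, or with no filter or DESeq2, and 3 without vehicle 3.

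The cytochromes P450 of families 1 to 3, the oxidases of the first step, moved both ways: 6 of 45 tested (of 59 listed) genes rose and 6 fell, with a median log2 fold change of -0.07. Over all tested genes 9.55% rose and 7.63% fell, not far from these counts. Cyp1a2 was at 633, 685 and 546 CPM with vehicle and 1033, 983 and 1084 CPM with AdipoRonPEG5 (log2 fold change 0.73, SE 0.13, adjusted p = 0.00412). Cyp2c67 was at 174, 216 and 231 CPM with vehicle and 327, 288 and 397 CPM with AdipoRonPEG5 (log2 fold change 0.71, SE 0.13, adjusted p = 0.00492). Cyp2a5, which oxidizes coumarin, was at 1094, 769 and 362 CPM with vehicle and 1943, 2187 and 2062 CPM with AdipoRonPEG5 (log2 fold change 1.48, SE 0.32, adjusted p = 0.0103). Its vehicle values were widely spread, and the lowest AdipoRonPEG5 value still lay above them. Cyp3a11, which oxidizes many drugs, went the other way, at 861, 543 and 186 CPM with vehicle and 32.7, 59.3 and 29.8 CPM with AdipoRonPEG5 (-3.70 ± 0.52), with widely spread vehicle values and no overlap. The falls numbered 1 without AdipoRonPEG5 1 or 2, 2 without vehicle 2, or with total-count scaling, and 3 without vehicle 1.

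Export pumps were among the changes as well. Of 36 tested (of 37 listed) ABC transporters, 7 rose and 5 fell, where 9.55% of all tested genes rose and 7.63% fell. Abcc4, which moves conjugates and bile acids across the sinusoidal membrane into the blood, was at 0.823, 0.673 and 1.12 CPM with vehicle and 7.22, 6.18 and 7.95 CPM with AdipoRonPEG5 (log2 fold change 3.04, SE 0.23, adjusted p = 3.90e-05). Abcg2, an exporter of drugs and urate into bile, was at 75.8, 69.7 and 62.3 CPM with vehicle and 101.9, 107 and 115 CPM with AdipoRonPEG5 (0.64 ± 0.11). Abcb11, the bile salt export pump, fell from 376, 364 and 398 CPM to 226, 245 and 237 CPM (log2 fold change -0.69, SE 0.085, adjusted p = 0.000665). Slc10a1, the sodium-dependent bile acid uptake carrier, fell from 694, 690.0 and 523 CPM to 410.5, 383 and 445 CPM (-0.62 ± 0.12). The groups did not overlap in any of these. Abcc4 and Abcb11 also differed from AdipoRon in every alternative run, by 2.51 (95% confidence interval 2.02 to 2.999) and -0.50 (95% confidence interval -0.68 to -0.31). Among the ABC transporters the number of rises was 4 without vehicle 2 or AdipoRonPEG5 2 or 3, or without both vehicle 3 and AdipoRonPEG5 1. That of falls was 1 without vehicle 2 or AdipoRonPEG5 2, 2 without AdipoRonPEG5 1 or 3, or with total-count scaling, and 3 without vehicle 1 or AdipoRon 2 or 3, or with only the 2 groups compared.

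Carriers of amino acids moved both ways. Of 30 tested (of 36 listed) amino acid and sugar carriers 8 rose and 6 fell, where 9.55% of all tested genes rose and 7.63% fell. Slc38a3, which takes glutamine into hepatocytes, was at 1768, 1610.2 and 1682 CPM with vehicle and 1131, 1056 and 1139.9 CPM with AdipoRonPEG5 (log2 fold change -0.61, SE 0.086, adjusted p = 0.00140). Slc38a2, a carrier of small neutral amino acids that cells induce when starved of them, was at 169, 246 and 199.7 CPM with vehicle and 82.2, 99.4 and 135 CPM with AdipoRonPEG5 (-0.96 ± 0.19). Slc1a2, a glutamate carrier of perivenous hepatocytes, was at 158, 163 and 135 CPM with vehicle and 106, 107 and 123 CPM with AdipoRonPEG5 (-0.44 ± 0.093). These 3 falls had no overlap. Slc6a9, a glycine carrier, was at 18.0, 24.2 and 18.7 CPM with vehicle and 36.8, 36.8 and 43.5 CPM with AdipoRonPEG5 (log2 fold change 0.95, SE 0.15, adjusted p = 0.00209), and was thus higher. Slc38a1, a glutamine carrier more typical of other tissues, was at 0.437, 0.374 and 0.446 CPM with vehicle and 1.91, 1.87 and 1.66 CPM with AdipoRonPEG5 (2.08 ± 0.33). In AdipoRon livers Slc38a1 was at 2.34, 1.39 and 1.16 CPM, and its difference between the compounds, 0.15, 95% confidence interval -0.47 to 0.77, did not pass. That of Slc38a3 was -0.56, 95% confidence interval -0.75 to -0.37, and was called in every alternative run. The number of carriers that rose was 5 without vehicle 1 or 2 or AdipoRonPEG5 2.

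**Figure D2:**
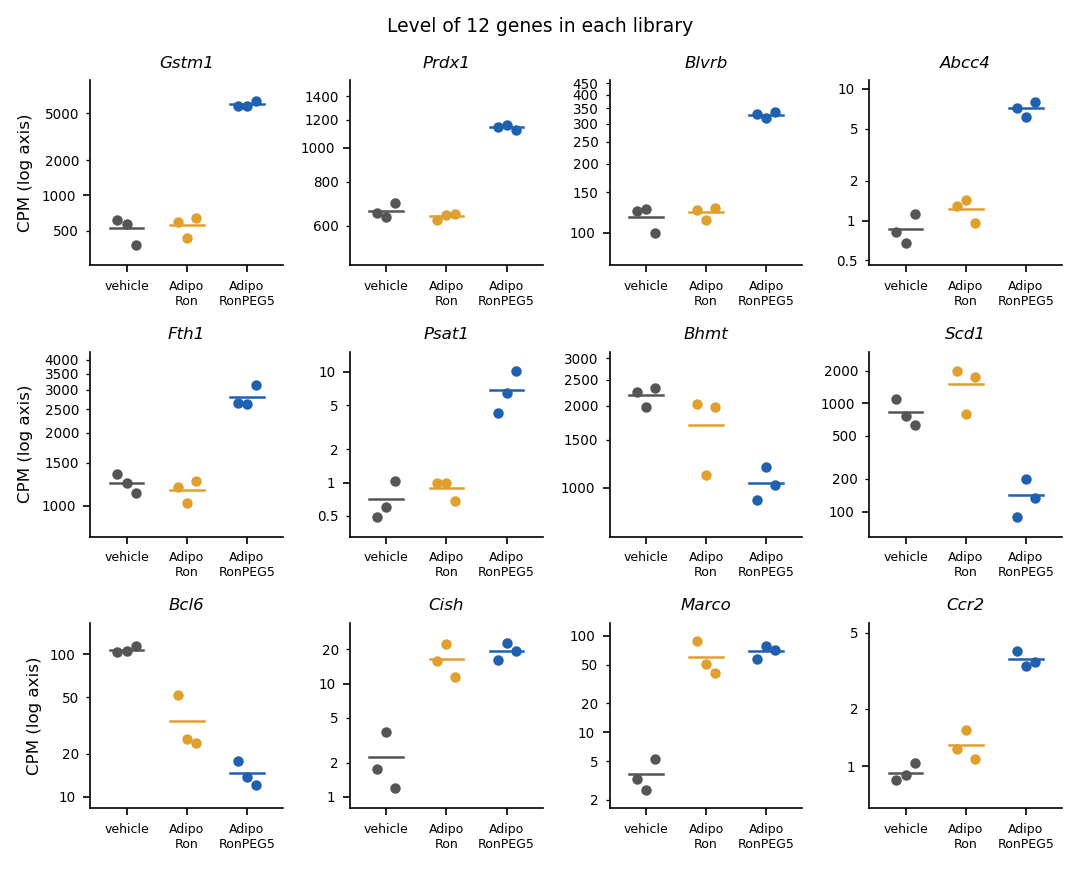
Each panel gives 1 gene in all 9 libraries as TMM-scaled CPM on a log axis, with 3 points for each group (vehicle, AdipoRon, AdipoRonPEG5) and a bar at the group mean. In Gstm1, Prdx1, Blvrb, Fth1 and Psat1 the AdipoRon points lie near those of vehicle, whereas in Cish and Marco they lie near those of AdipoRonPEG5.

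Ferritin, the protein shell that stores iron, was higher in its 2 chains. Fth1, the heavy chain with the oxidase site, was at 1349, 1245 and 1127 CPM with vehicle and 2649.7, 2630.2 and 3144 CPM with AdipoRonPEG5 (log2 fold change 1.18, SE 0.12, adjusted p = 0.000281). Ftl1, the light chain, was at 3556, 3185 and 3156 CPM with vehicle and 5376, 5762 and 6353 CPM with AdipoRonPEG5 (log2 fold change 0.82, SE 0.11, adjusted p = 0.00100). Tfrc, the transferrin receptor that brings iron into cells, was at 17.0, 18.4 and 16.9 CPM with vehicle and 25.5, 30.5 and 37.6 CPM with AdipoRonPEG5 (log2 fold change 0.84, SE 0.13, adjusted p = 0.00225). Storage and uptake genes were thus higher in the same livers, and neither ferritin chain nor Tfrc overlapped. Hfe, a regulator of iron sensing, had a smaller rise, at 34.99, 32.9 and 33.3 CPM with vehicle and 43.9, 43.4 and 45.3 CPM with AdipoRonPEG5 (0.39 ± 0.066). Against AdipoRon the log2 differences were 1.27 (95% confidence interval 1.01 to 1.54) for Fth1, 0.90 (95% confidence interval 0.65 to 1.14) for Ftl1 and 0.82 (95% confidence interval 0.53 to 1.11) for Tfrc, each called in every alternative run. Of 31 tested iron and heme genes 5 rose, where 9.55% of all tested genes rose. The only fall in the list was that of Hamp2, a hepcidin gene, at 77.2, 45.1 and 8.70 CPM with vehicle and 5.18, 9.71 and 4.38 CPM with AdipoRonPEG5, where the groups overlapped (-2.78 ± 0.70; the call of Hamp2 ended without vehicle 1 or 2 or AdipoRonPEG5 1 or 3, or with limma-voom, with adjusted p from 0.0513 to 0.116, and the log2 fold change of Hamp2 was -2.05 without vehicle 1).

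One-carbon metabolism, which passes methyl groups from serine, choline and betaine to methionine, had more falls than rises. Of 30 tested genes 10 fell, 3 rose and 17 did not pass, with a median log2 fold change of -0.11, and the number of rises was 1 without vehicle 1 or AdipoRonPEG5 3. Bhmt, which remethylates homocysteine with betaine, was at 2245, 1983 and 2328 CPM with vehicle and 897, 1187 and 1021 CPM with AdipoRonPEG5 (log2 fold change -1.08, SE 0.20, adjusted p = 0.00531). Gnmt, which disposes of excess methyl groups on glycine, was at 1666, 1712 and 1727 CPM with vehicle and 1059, 1236 and 1235 CPM with AdipoRonPEG5 (log2 fold change -0.53, SE 0.11, adjusted p = 0.00718). Mat1a, the liver form of methionine adenosyltransferase, was at 3204, 3080.0 and 2762 CPM with vehicle and 2040.2, 1813 and 1830.4 CPM with AdipoRonPEG5 (log2 fold change -0.67, SE 0.13, adjusted p = 0.00738). These are abundant hepatocyte transcripts whose groups did not overlap, which for Bhmt and Mat1a was a condition of 1 of their naming rules. Dmgdh and Shmt1, a mitochondrial enzyme of choline breakdown and the cytosolic serine hydroxymethyltransferase, were also lower (-0.66 ± 0.10 and -0.43 ± 0.075).

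Psat1, the aminotransferase of serine synthesis, moved against this trend, from 0.488, 0.598 and 1.04 CPM to 4.26, 6.38 and 10.1 CPM (log2 fold change 3.39, SE 0.38, adjusted p = 0.000423). Phgdh, the first enzyme of that pathway, rose at a low level, at 0.206, 0.149 and 0.298 CPM with vehicle and 0.740, 0.675 and 1.48 CPM with AdipoRonPEG5 (2.12 ± 0.49; the call of Phgdh ended without vehicle 1 or AdipoRonPEG5 3, with adjusted p from 0.0570 to 0.0632). Psat1 was at 0.987, 0.9998 and 0.683 CPM with AdipoRon, a log2 difference of 2.94 (95% confidence interval 2.13 to 3.74) that was called in every alternative run. The third rise in the list was that of Mthfd2, a mitochondrial folate enzyme, at 0.617, 0.747 and 1.12 CPM with vehicle and 1.54, 1.76 and 1.91 CPM with AdipoRonPEG5 (1.14 ± 0.31). However, the call of Mthfd2 ended without vehicle 1 or 2 or AdipoRonPEG5 1, 2 or 3, or with vehicle 1 thinned, with adjusted p from 0.0507 to 0.138.

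Of 52 tested (of 59 listed) genes for fatty acid activation, desaturation, elongation and storage, 10 fell and 5 rose. The share that rose is near the 9.55% of all tested genes, and 7.63% of all tested genes fell. Scd1, the stearoyl-CoA desaturase, was at 1092, 768 and 630.3 CPM with vehicle and 88.7, 200.3 and 134 CPM with AdipoRonPEG5 (-2.56 ± 0.37). Elovl6, which elongates palmitate, was at 119, 103.4 and 96.4 CPM with vehicle and 32.7, 30.4 and 33.9 CPM with AdipoRonPEG5 (log2 fold change -1.72, SE 0.15, adjusted p = 9.02e-05). Elovl2, an elongase of polyunsaturated fatty acids, was at 412, 387 and 438 CPM with vehicle and 239.9, 268 and 284 CPM with AdipoRonPEG5 (-0.64 ± 0.094). Lpin1, a phosphatidate phosphatase of triglyceride synthesis, was at 434, 752 and 599 CPM with vehicle and 132, 127 and 251 CPM with AdipoRonPEG5 (-1.80 ± 0.35). In all 4 the 3 AdipoRonPEG5 values lay below the 3 vehicle values. Elovl1, which makes very long chains, rose (26.5, 22.7 and 30.4 CPM with vehicle and 38.8, 41.9 and 44.5 CPM with AdipoRonPEG5; 0.65 ± 0.10). Scd1 was also lower than with AdipoRon, where it was at 1977, 800.3 and 1763 CPM (log2 difference -3.42, 95% confidence interval -4.27 to -2.58), and so were Elovl6 (-1.42, 95% confidence interval -1.74 to -1.10) and Elovl2 (-0.73, 95% confidence interval -0.94 to -0.52), in every alternative run. The number of rises in the list was 2 without vehicle 2 or AdipoRonPEG5 3, and 3 without AdipoRonPEG5 2.

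Growth hormone acts on hepatocytes through STAT5, which induces the feedback inhibitors Cish and Socs2 and represses Bcl6, itself a repressor that binds sites of similar sequence. Bcl6 was at 103.2, 105 and 113 CPM with vehicle and 18.0, 13.86 and 12.1 CPM with AdipoRonPEG5 (log2 fold change -2.87, SE 0.27, adjusted p = 0.000197). Cish was at 1.77, 3.74 and 1.19 CPM with vehicle and 16.1, 22.7 and 19.4 CPM with AdipoRonPEG5 (log2 fold change 3.18, SE 0.34, adjusted p = 0.000370). Socs2 was at 3.62, 7.92 and 4.39 CPM with vehicle and 14.2, 18.7 and 11.1 CPM with AdipoRonPEG5 (log2 fold change 1.52, SE 0.27, adjusted p = 0.00404). None of the 3 overlapped, with Bcl6 lower and the 2 inhibitors higher. In AdipoRon livers Cish was at 15.9, 22.2 and 11.4 CPM, and the difference between the compounds was 0.23, 95% confidence interval -0.39 to 0.85, adjusted p = 0.697. Bcl6 was at 52.1, 25.6 and 23.8 CPM with AdipoRon, with a difference of -1.21, 95% confidence interval -1.79 to -0.63, adjusted p = 0.0264; this call ended without AdipoRonPEG5 2 or 3, with adjusted p = 0.102. Spry4, an inhibitor of growth factor receptor signalling, fell from 18.8, 20.6 and 16.4 CPM to 7.40, 7.27 and 4.69 CPM (log2 fold change -1.52, SE 0.26, adjusted p = 0.00330), and AdipoRon livers held 27.1, 15.2 and 13.3 CPM.

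Sites of STAT5 and BCL6 share the letters TTCNNNGAA, which read the same on both strands. At least 1 match lay in a window of 8.55% of the matched genes, in 10.1% of the rises and in 10.4% of the falls. The window of 1 of the 2 RefSeq starts of Bcl6 holds 3 matches, and the stretch that holds them is shown because Bcl6 is among the largest falls. It lies on the minus strand at chr16:23981343-23981471 (GRCm38.p6), with the matches in capitals at 168 to 88 bases before that start. No binding was measured.
Bcl6: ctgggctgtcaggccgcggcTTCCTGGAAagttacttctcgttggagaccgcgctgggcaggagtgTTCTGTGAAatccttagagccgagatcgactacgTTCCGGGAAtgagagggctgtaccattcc

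Among 29 tested genes known for higher levels in male liver, 1 rose and 8 fell, and among 16 known for higher levels in female liver 1 rose and 3 fell. Of the male-biased falls 5 were in major urinary protein genes, pheromone carriers that hepatocytes secrete. Mup3 was at 11477, 14752 and 14156 CPM with vehicle and 7408, 8067 and 7518 CPM with AdipoRonPEG5 (log2 fold change -0.81, SE 0.12, adjusted p = 0.00180). Mup19 was at 25.7, 19.4 and 29.98 CPM with vehicle and 5.06, 1.82 and 1.23 CPM with AdipoRonPEG5, with AdipoRonPEG5 1 the highest of its group (-3.23 ± 0.40; the log2 fold change of Mup19 was -4.02 without AdipoRonPEG5 1 and -3.88 without both vehicle 3 and AdipoRonPEG5 1). Cyp4a12a, an omega-hydroxylase that is male-biased too, rose from 73.0, 90.1 and 79.4 CPM to 146, 192 and 234 CPM (log2 fold change 1.24, SE 0.16, adjusted p = 0.000960). Mup9, Mup15, Mup16 and Mup17 were called lower as well. Some of these calls were less firm: they ended in 1, 5, 7 and 0 of the alternatives, in that order. The Mup genes are near-identical copies, so the split of reads among them is uncertain, and the labels do not give the sex of the mice. The number of male-biased rises was 2 without vehicle 2 or AdipoRon 2, or with total-count scaling, 3 with no filter, DESeq2 or limma-voom, 4 without both vehicle 3 and AdipoRonPEG5 1, and 5 without vehicle 3, and that of falls 5 without vehicle 2 or 3, or without both vehicle 3 and AdipoRonPEG5 1. For the female-biased genes the rises were 2 without vehicle 3, or with no filter, and 3 without both vehicle 3 and AdipoRonPEG5 1, and the falls 1 without AdipoRonPEG5 1.

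Among 48 tested (of 50 listed) transcription factors of hepatocytes, 10 fell and 4 rose. Of all tested genes 7.63% fell and 9.55% rose, so the rises are near the general share. Onecut1, also called HNF6, was at 3.83, 7.70 and 5.43 CPM with vehicle and 31.7, 28.7 and 33.7 CPM with AdipoRonPEG5 (log2 fold change 2.54, SE 0.48, adjusted p = 0.00572). Foxa2, which opens liver chromatin, was at 27.2, 23.2 and 28.3 CPM with vehicle and 47.0, 49.2 and 38.5 CPM with AdipoRonPEG5 (log2 fold change 0.77, SE 0.11, adjusted p = 0.00126). Cebpb, a factor of the stress and gluconeogenic response, was at 179, 233 and 211 CPM with vehicle and 101, 133 and 152 CPM with AdipoRonPEG5 (-0.69 ± 0.15). Zbtb20, a repressor known for silencing alpha-fetoprotein, was at 186, 199 and 242 CPM with vehicle and 128, 111 and 124 CPM with AdipoRonPEG5 (-0.79 ± 0.17). In Onecut1 the AdipoRon libraries were at 9.81, 49.2 and 40.8 CPM, of which the first lay near vehicle and the others above every AdipoRonPEG5 library, for a difference of -0.087 (95% confidence interval -1.02 to 0.84). That of Foxa2 was -0.029 (95% confidence interval -0.26 to 0.20), and neither passed (adjusted p = 0.929 and 0.903). Falls in the list numbered 4 without vehicle 2 or AdipoRonPEG5 3, 5 without vehicle 1 or AdipoRonPEG5 2, and 6 without AdipoRonPEG5 1, or with total-count scaling.

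The fixed hepatocyte markers had 0 rises and 5 falls among 13. Tat, a tyrosine aminotransferase, was at 2100.2, 3263 and 2597 CPM with vehicle and 462, 683 and 951 CPM with AdipoRonPEG5 (log2 fold change -1.92, SE 0.35, adjusted p = 0.00437). Serpina1b, which encodes an alpha-1-antitrypsin, was at 6119.7, 6297 and 6103 CPM with vehicle and 4236, 3926 and 4398 CPM with AdipoRonPEG5 (log2 fold change -0.56, SE 0.098, adjusted p = 0.00360). Apoa1, the main protein of high-density lipoprotein, was at 11676, 13852 and 18145 CPM with vehicle and 8579.6, 9163 and 10136 CPM with AdipoRonPEG5 (-0.65 ± 0.15), with vehicle 3 the highest library; the call of Apoa1 ended without AdipoRonPEG5 1 or 2, or without both vehicle 3 and AdipoRonPEG5 1, with adjusted p from 0.0605 to 0.0656. Of 24 tested (of 29 listed) serpins 5 fell and 3 rose, where 7.63% of all tested genes fell and 9.55% rose. The serpin rises are thus not far from the general share. Serpina1d was at 2868, 3112 and 2983 CPM with vehicle and 1689, 1680.0 and 1944 CPM with AdipoRonPEG5 (-0.75 ± 0.099799). Serpinf1, an antiangiogenic factor, was at 559, 601 and 507 CPM with vehicle and 387, 393 and 435 CPM with AdipoRonPEG5 (-0.46 ± 0.091). Falls numbered 2 without AdipoRonPEG5 1 or 2, and 3 without vehicle 2 among the hepatocyte markers, and 3 without vehicle 2, and 8 without vehicle 3 among the serpins.

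Of 29 tested (of 30 listed) acute phase genes, 3 rose and 3 fell, near the 9.55% and 7.63% of all tested genes. The count of rises moved with the libraries that stood apart: it was 1 without vehicle 2 or AdipoRonPEG5 1, 11 without both vehicle 3 and AdipoRonPEG5 1, and 14 without vehicle 3. The falls were 1 without vehicle 2 or AdipoRonPEG5 2, and 5 with no filter. Mt2, a metallothionein that binds zinc and copper, was at 24.8, 35.2 and 37.1 CPM with vehicle and 685, 148 and 80.1 CPM with AdipoRonPEG5 (log2 fold change 3.24, SE 0.69, adjusted p = 0.00983). Its highest library was AdipoRonPEG5 1, but AdipoRonPEG5 2 and 3 also lay above all vehicle libraries (the log2 fold change of Mt2 was 1.83 without AdipoRonPEG5 1 and 1.95 without both vehicle 3 and AdipoRonPEG5 1). Its paralog Mt1 was at 135, 112 and 161 CPM with vehicle and 1273, 320.0 and 186 CPM with AdipoRonPEG5 (2.12 ± 0.58); the call of Mt1 ended without vehicle 1 or 2 or AdipoRonPEG5 1, or without both vehicle 3 and AdipoRonPEG5 1, or with limma-voom, with adjusted p from 0.0619 to 0.104, and the log2 fold change of Mt1 was 0.89 without AdipoRonPEG5 1 and 1.03 without both vehicle 3 and AdipoRonPEG5 1. Serum amyloid Saa1 was at 45.4, 45.1 and 4959 CPM with vehicle and 1952, 207 and 173 CPM with AdipoRonPEG5, and the groups overlapped.

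Macrophage genes rose together. Of 16 Kupffer cell markers, all of which passed the filter, 15 rose and 0 fell, against 9.55% of all tested genes that rose. Marco, a scavenger receptor for bacteria and particles, was at 3.26, 2.54 and 5.28 CPM with vehicle and 58.0, 78.7 and 71.2 CPM with AdipoRonPEG5 (4.26 ± 0.31). Csf1r, the receptor for the growth factor on which macrophages depend, was at 16.1, 15.2 and 17.8 CPM with vehicle and 58.1, 52.9 and 71.8 CPM with AdipoRonPEG5 (log2 fold change 1.90, SE 0.21, adjusted p = 0.000423). Timd4, which binds phosphatidylserine on dying cells, was at 2.29, 2.54 and 2.83 CPM with vehicle and 6.79, 9.34 and 9.93 CPM with AdipoRonPEG5 (log2 fold change 1.79, SE 0.22, adjusted p = 0.000640). All 3 were well apart between the groups, Marco the most. Vsig4, a complement receptor, was at 7.45, 6.43 and 10.3 CPM with vehicle and 22.95, 22.4 and 22.998 CPM with AdipoRonPEG5 (1.51 ± 0.23). In each of these the 3 AdipoRonPEG5 libraries lay above the 3 vehicle libraries. The summed level of the 16 markers was 232 to 322 CPM with vehicle, 811 to 847 CPM with AdipoRonPEG5 and 542 to 944 CPM with AdipoRon. In whole-liver RNA, more Kupffer cells and more marker RNA per cell cannot be told apart.

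**Figure D3:**
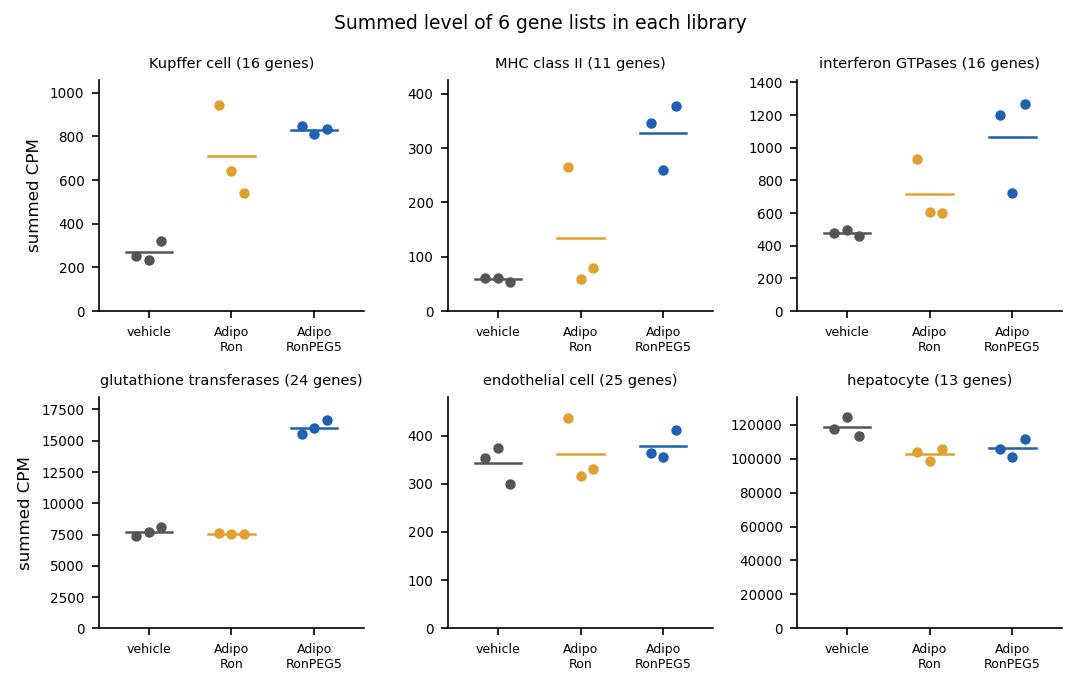
Each panel sums the TMM-scaled CPM of 1 gene list in each library (points) with the group mean as a bar, on a linear axis from 0. Kupffer cell markers lie at 232 to 322 CPM with vehicle and 811 to 847 CPM with AdipoRonPEG5, the glutathione transferases lie at 15545 to 16646 CPM with AdipoRonPEG5 and at 7368 to 8122 CPM with vehicle, and the endothelial markers overlap between all groups.

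Most tested genes of monocytes and of the macrophages they give rise to were higher as well. Of 10 tested (of 15 listed) markers out of 15, 8 rose and 0 fell. The summed level of the 15 was 1277 to 1730 CPM with vehicle and 1295 to 1563 CPM with AdipoRonPEG5, so as a sum the list did not separate the groups. Ccr2, the chemokine receptor by which monocytes leave the bone marrow, was at 0.848, 0.897 and 1.04 CPM with vehicle and 4.01, 3.37 and 3.51 CPM with AdipoRonPEG5 (log2 fold change 1.98, SE 0.23, adjusted p = 0.000462). Lgals3, galectin-3, was at 2.39, 1.49 and 2.08 CPM with vehicle and 13.8, 14.2 and 11.7 CPM with AdipoRonPEG5 (log2 fold change 2.68, SE 0.20, adjusted p = 3.64e-05). Lyz2, a lysozyme of phagocytes, was at 20.9, 14.1 and 20.4 CPM with vehicle and 78.1, 80.4 and 54.6 CPM with AdipoRonPEG5 (log2 fold change 1.93, SE 0.21, adjusted p = 0.000400). All 3 were separated between the groups, although Ccr2 was at only a few CPM. For Ccr2 and Lgals3 the AdipoRonPEG5 livers exceeded the AdipoRon livers in every alternative run, by 1.47 (95% confidence interval 0.99 to 1.96) and 1.05 (95% confidence interval 0.65 to 1.44) on the log2 scale, whereas Marco differed by 0.21 (95% confidence interval -0.35 to 0.76) and Timd4 by 0.15 (95% confidence interval -0.30 to 0.59), which did not pass (adjusted p = 0.689 and 0.731).

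Of 10 tested lipid-associated macrophage markers, a state of macrophages that take up lipid, 6 rose and 0 fell. Their summed level was 42.6 to 141.5 CPM with vehicle and 81.4 to 106.9 CPM with AdipoRonPEG5, so the highest vehicle library exceeded every AdipoRonPEG5 library. Cd63, a tetraspanin of late endosomes, was at 5.48, 4.33 and 4.46 CPM with vehicle and 12.2, 9.86 and 11.4 CPM with AdipoRonPEG5 (log2 fold change 1.202, SE 0.19, adjusted p = 0.00248). Mmp12, the macrophage elastase, was at 0.283, 0.0747 and 0.149 CPM with vehicle and 2.34, 3.11 and 1.36 CPM with AdipoRonPEG5 (3.45 ± 0.51; the log2 fold change of Mmp12 was 4.26 without vehicle 1 and 4.19 with vehicle 1 thinned). Gpnmb, a lysosomal membrane glycoprotein, was at 0.103, 0.149 and 0.446 CPM with vehicle and 2.10, 3.84 and 1.73 CPM with AdipoRonPEG5 (3.70 ± 0.57; the log2 fold change of Gpnmb was 3.07 without vehicle 1, 4.40 without vehicle 3 and 4.53 without both vehicle 3 and AdipoRonPEG5 1).

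The apparatus by which phagocytes bind antibody-coated particles was higher. Of 19 tested (of 20 listed) Fc receptors, Trem receptors and signalling chains 16 rose and 0 fell. Fcgr4, an activating receptor for immunoglobulin G, was at 1.77, 1.64 and 2.45 CPM with vehicle and 13.1, 10.4 and 11.6 CPM with AdipoRonPEG5 (log2 fold change 2.599, SE 0.25, adjusted p = 0.000240). Its signalling subunit Fcer1g was at 4.65, 4.71 and 5.13 CPM with vehicle and 17.6, 16.5 and 18.4 CPM with AdipoRonPEG5 (log2 fold change 1.86, SE 0.18, adjusted p = 0.000240). Tyrobp, the adaptor of the Trem receptors, was at 5.58, 4.86 and 6.47 CPM with vehicle and 19.8, 17.1 and 16.2 CPM with AdipoRonPEG5 (log2 fold change 1.65, SE 0.18, adjusted p = 0.000400). None of the 3 overlapped. Downstream, the kinase Syk was at 2.78, 2.99 and 3.20 CPM with vehicle and 9.13, 7.11 and 9.31 CPM with AdipoRonPEG5 (1.52 ± 0.19). Its difference from AdipoRon, 0.066 (95% confidence interval -0.33 to 0.46), did not pass.

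Of 9 tested (of 14 listed) genes for the phagocyte oxidase and antimicrobial defence, 8 rose. Cybb, the catalytic subunit that makes superoxide, was at 5.06, 4.11 and 5.58 CPM with vehicle and 18.3, 17.4 and 20.04 CPM with AdipoRonPEG5 (log2 fold change 1.91, SE 0.22, adjusted p = 0.000487). Its partner Cyba was at 6.12, 5.08 and 6.55 CPM with vehicle and 19.3, 18.3 and 17.9 CPM with AdipoRonPEG5 (1.64 ± 0.19). Rac2, the GTPase that activates them, was at 2.06, 2.17 and 2.31 CPM with vehicle and 11.7, 10.2 and 11.7 CPM with AdipoRonPEG5 (2.37 ± 0.16). Of 30 tested (of 35 listed) Toll-like receptor and inflammasome genes 16 rose and 1 fell. Tlr1, which pairs with the receptor for bacterial lipoprotein, was at 0.566, 0.149 and 0.521 CPM with vehicle and 3.02, 2.75 and 2.40 CPM with AdipoRonPEG5 (log2 fold change 2.57, SE 0.36, adjusted p = 0.00137). Ly86, the partner of Cd180, was at 2.08, 1.345 and 1.79 CPM with vehicle and 6.85, 6.59 and 7.21 CPM with AdipoRonPEG5 (1.93 ± 0.25). Ticam1, the adaptor of the receptor for double-stranded RNA, fell from 24.5, 24.3 and 23.8 CPM to 15.7, 14.1 and 11.9 CPM (log2 fold change -0.80, SE 0.13, adjusted p = 0.00254). Falls among these genes numbered 2 without vehicle 1 or AdipoRonPEG5 1, or with RLE size factors, vehicle 1 thinned or a gene length trend removed.

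Of 13 tested (of 20 listed) C-type lectin receptors, by which myeloid cells recognise sugars, 8 rose and 0 fell. Clec4a1 was at 1.03, 0.374 and 0.818 CPM with vehicle and 5.37, 4.10 and 3.76 CPM with AdipoRonPEG5 (log2 fold change 2.44, SE 0.39, adjusted p = 0.00248). Clec12a, an inhibitory receptor, was at 1.83, 1.27 and 2.75 CPM with vehicle and 7.34, 6.59 and 5.98 CPM with AdipoRonPEG5 (log2 fold change 1.78, SE 0.24, adjusted p = 0.00114). The groups did not overlap in either gene. AdipoRon livers were at 6.97, 5.11 and 2.67 CPM for Clec4a1, within or above the AdipoRonPEG5 range in 2 of 3 libraries, and the difference was -0.16, 95% confidence interval -0.88 to 0.55, adjusted p = 0.821. Of 17 tested (of 27 listed) chemokines 6 rose and 0 fell. Ccl6, made by macrophages, was at 2.08, 2.24 and 5.58 CPM with vehicle and 10.9, 12.7 and 9.06 CPM with AdipoRonPEG5 (1.80 ± 0.33). Cxcl9, which draws activated T cells, was at 4.11, 5.75 and 4.02 CPM with vehicle and 25.05, 14.9 and 23.2 CPM with AdipoRonPEG5 (2.20 ± 0.29).

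Of 22 tested (of 33 listed) interleukin and TNF family cytokines and receptors 11 rose and 1 fell. Csf2rb, the shared signalling chain of the receptors for GM-CSF and related cytokines, was at 3.01, 3.74 and 3.94 CPM with vehicle and 10.2, 8.51 and 9.06 CPM with AdipoRonPEG5 (log2 fold change 1.41, SE 0.16, adjusted p = 0.000468). Ifngr1, a chain of the interferon gamma receptor, was at 10.8, 10.5 and 10.6 CPM with vehicle and 17.2, 18.3 and 17.1 CPM with AdipoRonPEG5 (log2 fold change 0.72, SE 0.10, adjusted p = 0.00126). Both were tight within groups. Tnfrsf1b, a TNF receptor, fell from 42.7, 43.5 and 41.1 CPM to 25.8, 28.8 and 31.7 CPM (log2 fold change -0.56, SE 0.12, adjusted p = 0.0105). Of 17 tested (of 21 listed) genes for eicosanoids, lipid mediators made from arachidonic acid, 6 rose and 1 fell. Alox5ap, which hands arachidonic acid to the leukotriene pathway, was at 0.797, 1.12 and 0.669 CPM with vehicle and 3.15, 3.11 and 2.71 CPM with AdipoRonPEG5 (log2 fold change 1.81, SE 0.24, adjusted p = 0.000907). Ptgs1, a cyclooxygenase, was at 5.89, 5.68 and 6.69 CPM with vehicle and 12.6, 12.4 and 13.1 CPM with AdipoRonPEG5 (1.06 ± 0.16). Ptgds, a prostaglandin D synthase, went the other way, from 2.67, 3.89 and 2.53 CPM to 0.370, 0.363 and 0.308 CPM (-3.08 ± 0.36). None of these overlapped between the groups.

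Interferon-inducible GTPases, which attack the vacuoles of intracellular pathogens, rose in all 16 tested (of 18 listed) members. Gbp6 was at 18.1, 17.5 and 12.8 CPM with vehicle and 90.8, 52.1 and 104 CPM with AdipoRonPEG5 (log2 fold change 2.34, SE 0.36, adjusted p = 0.00187). Irgm2 was at 36.8, 35.4 and 32.4 CPM with vehicle and 120.3, 76.7 and 142 CPM with AdipoRonPEG5 (log2 fold change 1.69, SE 0.27, adjusted p = 0.00261). Ifi47 was at 8.30, 10.5 and 16.5 CPM with vehicle and 42.7, 28.3 and 38.8 CPM with AdipoRonPEG5 (log2 fold change 1.67, SE 0.27, adjusted p = 0.00260). In all 3 AdipoRonPEG5 2 was the lowest of its group and lay above every vehicle library. Guanylate-binding proteins occur as clusters of similar copies. The antiviral genes of the type I interferon response, by which cells resist viruses, rose in 15 and fell in 1 of 43 tested (of 44 listed) members. Zbp1, a sensor of left-handed nucleic acid, was at 3.16, 4.71 and 9.45 CPM with vehicle and 24.9, 16.2 and 25.5 CPM with AdipoRonPEG5 (2.02 ± 0.35). Parp14 was at 35.2, 33.3 and 32.4 CPM with vehicle and 47.8, 45.4 and 52.2 CPM with AdipoRonPEG5 (0.52 ± 0.090). Here the rises were 8 without vehicle 2 or AdipoRonPEG5 3, and the falls 0 without both vehicle 3 and AdipoRonPEG5 1.

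Antigen presentation was higher in both classes. Of 9 tested (of 11 listed) class II genes 8 rose. H2-Ab1, a beta chain of the presenting molecules, was at 13.88, 11.96 and 13.2 CPM with vehicle and 68.4, 55.1 and 81.0 CPM with AdipoRonPEG5 (log2 fold change 2.38, SE 0.43, adjusted p = 0.00441). H2-Eb1, another beta chain, was at 10.03, 8.89 and 7.36 CPM with vehicle and 55.5, 39.3 and 55.6 CPM with AdipoRonPEG5 (log2 fold change 2.49, SE 0.43, adjusted p = 0.00349). The AdipoRon livers were at 56.0, 13.7 and 17.0 CPM for H2-Ab1, with AdipoRon 1 near the AdipoRonPEG5 level and the other 2 near vehicle. For class I and peptide loading, 13 of 24 tested genes rose. The summed level of these 24 overlapped, at 6858 to 8031 CPM with vehicle and 7973 to 8428 CPM with AdipoRonPEG5. Psme1, an activator of the immunoproteasome, was at 80.0, 90.7 and 90.6 CPM with vehicle and 143, 136 and 166 CPM with AdipoRonPEG5 (log2 fold change 0.77, SE 0.11, adjusted p = 0.00144). Tap1, which moves peptides into the endoplasmic reticulum, was at 28.8, 27.1 and 25.4 CPM with vehicle and 59.8, 48.7 and 70.8 CPM with AdipoRonPEG5 (1.13 ± 0.19). Nlrc5, the class I transactivator, was at 24.5, 29.3 and 29.3 CPM with vehicle and 49.7, 39.3 and 46.0 CPM with AdipoRonPEG5 (0.70 ± 0.10). The number of class I rises was 7 without vehicle 2 or AdipoRonPEG5 3, and 8 without vehicle 1, or without both vehicle 3 and AdipoRonPEG5 1.

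**Figure D4:**
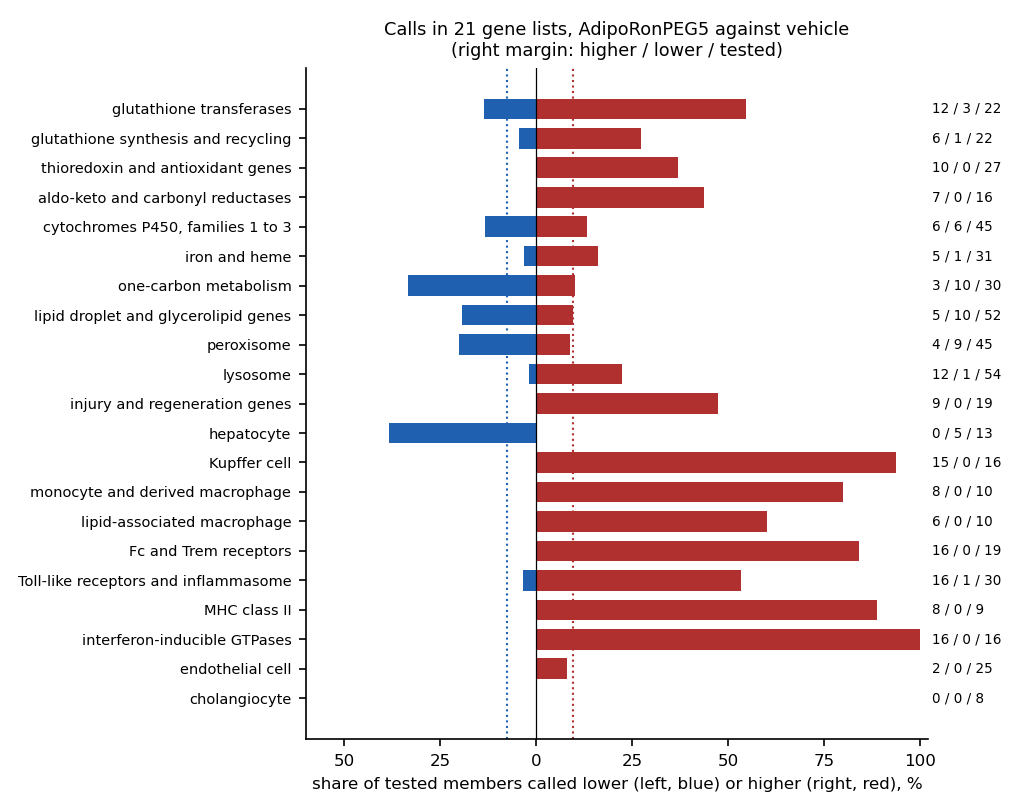
For 21 gene lists, bars give the share of tested members called higher (right, red) or lower (left, blue) with AdipoRonPEG5 than with vehicle, in percent, with the numbers called and tested in the right margin. The 21 are a selection from 67 lists and do not represent them all. Not drawn are, among others, coagulation (0 higher and 4 lower of 30 tested) and ribosome biogenesis (0 higher and 3 lower of 30 tested). The coagulation counts were 1 higher and 0 lower without both vehicle 3 and AdipoRonPEG5 1. Coagulation falls numbered 1 without vehicle 2 or AdipoRonPEG5 1 or 2, or with total-count scaling, 2 without AdipoRonPEG5 3, and 7 with DESeq2. Dotted lines mark the shares over all 13151 tested genes, 9.55% higher and 7.63% lower, which the Kupffer cell, MHC class II and interferon-inducible GTPase lists exceed several-fold.

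Markers of other cell types moved less or were too scarce to test. Over all tested genes 9.55% rose, and the endothelial rises are near that share. Of 25 tested endothelial markers 2 rose, Plvap and Cdh5, and the number was 0 without vehicle 2 or 3 or AdipoRonPEG5 2 or 3, or without both vehicle 3 and AdipoRonPEG5 1, and 1 without AdipoRon 3 or AdipoRonPEG5 1. Their summed level was 299.8 to 375 CPM with vehicle and 356 to 412 CPM with AdipoRonPEG5, so the ranges overlapped. Of 22 tested (of 23 listed) stellate cell and fibroblast markers 4 rose, and the number of rises was 2 without vehicle 2 or AdipoRonPEG5 2, and 7 without both vehicle 3 and AdipoRonPEG5 1, or with no filter. Cygb, a globin of stellate cells, was at 6.68, 5.98 and 5.06 CPM with vehicle and 10.5, 9.08 and 11.3 CPM with AdipoRonPEG5 (0.78 ± 0.14). Among 8 tested (of 15 listed) cholangiocyte markers, 7 of red blood cells and 2 of platelets, 0 rose and 0 fell. The number of falls was 1 without vehicle 3, or without both vehicle 3 and AdipoRonPEG5 1, or with no filter or DESeq2 for cholangiocytes, and 1 without vehicle 3 for red blood cells.

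Lymphocyte markers were near the limit of detection. A gene could pass the filter on the counts of the treated livers alone, as Gzma and Cd79a below did. The filter thus favoured rises among the tested markers, and their number is no support for more lymphocytes. Of 28 T and NK cell markers 9 could be tested, of which 3 rose and 1 fell, with a summed level of 15.6 to 18.2 CPM with vehicle and 17.7 to 21.2 CPM with AdipoRonPEG5. Gzma, a granzyme, was at 0.0771, 0.224 and 0.223 CPM with vehicle and 0.925, 0.675 and 0.863 CPM with AdipoRonPEG5 (2.45 ± 0.47; the log2 fold change of Gzma was 1.83 without vehicle 1). Of 16 B cell markers 7 could be tested and 3 rose; Cd79a, a chain of the B cell receptor complex, was at 0.334, 0.0747 and 0.223 CPM with vehicle and 1.42, 1.40 and 1.11 CPM with AdipoRonPEG5 (2.38 ± 0.41; the log2 fold change of Cd79a was 3.07 without vehicle 1 and 3.39 with vehicle 1 thinned). The number of rises was 0 with only genes over 1 CPM, 1 without vehicle 1 or 2 or AdipoRonPEG5 3, and 5 without AdipoRon 1 for T and NK cells, and 1 with only genes over 1 CPM for B cells. Falls of T and NK cell markers numbered 0 without vehicle 2 or 3, AdipoRon 1 or 3 or AdipoRonPEG5 1, 2 or 3, or without both vehicle 3 and AdipoRonPEG5 1, or with total-count scaling, limma-voom or only the 2 groups compared. Of 12 neutrophil markers only Csf3r passed the filter, at 0.951, 0.822 and 1.19 CPM with vehicle and 5.74, 4.98 and 3.08 CPM with AdipoRonPEG5 (2.23 ± 0.27). The part of these cells in the rises of the immune lists was not tested.

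Lysosomal genes followed in part. Of 54 tested members 12 rose and 1 fell. Ctsd, a protease of hepatocytes and macrophages alike, was at 295, 289.9 and 301 CPM with vehicle and 416, 432 and 442 CPM with AdipoRonPEG5 (log2 fold change 0.54, SE 0.074, adjusted p = 0.00114). Lgmn, an endopeptidase, was at 28.8, 30.3 and 41.2 CPM with vehicle and 67.7, 70.8 and 66.8 CPM with AdipoRonPEG5 (log2 fold change 1.04, SE 0.13, adjusted p = 0.000666). Ctss, a cathepsin of antigen-presenting cells, was at 12.9, 13.901 and 16.4 CPM with vehicle and 46.0, 41.9 and 53.5 CPM with AdipoRonPEG5 (1.72 ± 0.26). Ctsd exceeded the AdipoRon livers in every alternative run (0.45, 95% confidence interval 0.28 to 0.61), and Ctss did not pass against them (0.50, 95% confidence interval -0.049 to 1.05). The number of lysosomal rises was 20 with total-count scaling. Lysosomal falls numbered 0 without AdipoRonPEG5 1 or 2, or without both vehicle 3 and AdipoRonPEG5 1, and 2 without AdipoRonPEG5 3.

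Of 19 tested (of 23 listed) genes known to rise in injured, regenerating or fetal liver, 9 rose and 0 fell. Krt18, a keratin of hepatocytes, was at 113, 108 and 143 CPM with vehicle and 181, 185 and 178 CPM with AdipoRonPEG5 (log2 fold change 0.58, SE 0.10, adjusted p = 0.00371). Anxa5, a phospholipid-binding annexin, was at 58.9, 47.5 and 44.7 CPM with vehicle and 88.2, 98.7 and 101 CPM with AdipoRonPEG5 (log2 fold change 0.92, SE 0.15, adjusted p = 0.00265). S100a11, a calcium-binding protein, was at 3.68, 3.36 and 3.57 CPM with vehicle and 11.9, 11.3 and 12.8 CPM with AdipoRonPEG5 (log2 fold change 1.75, SE 0.18, adjusted p = 0.000281). Vim, an intermediate filament of mesenchymal cells and macrophages, was at 11.1, 9.19 and 11.8 CPM with vehicle and 23.3, 26.5 and 27.7 CPM with AdipoRonPEG5 (1.27 ± 0.15). The groups did not overlap in these genes, and the number of falls was 1 without AdipoRonPEG5 3, or with limma-voom. Several of them are also expressed by macrophages, whose markers rose in the same livers, and the part of macrophages in these rises was not tested.

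Between the 2 compounds, at the same stated dose and times, 352 genes were higher with AdipoRonPEG5 (2.68% of those tested) and 357 lower (2.71%), or 5.39% in all. The 352 and 357 became 135 and 98 without AdipoRonPEG5 2, 140 and 113 without AdipoRonPEG5 3, 151 and 122 without AdipoRonPEG5 1, 162 and 144 without AdipoRon 3, 183 and 162 without AdipoRon 1, and 208 and 207 without AdipoRon 2. They were 551 and 481 without vehicle 3. Transferases, ferritin chains, Psat1, Scd1, Ccr2 and Lgals3 were on the differing side, as given above. Among the macrophage genes, Csf1r differed by 0.32 (95% confidence interval -0.12 to 0.77), Fcgr4 by 0.39 (95% confidence interval -0.095 to 0.87) and Cybb by 0.27 (95% confidence interval -0.18 to 0.72), and none of the 3 passed (adjusted p = 0.384, 0.336 and 0.484). Any difference within these intervals is possible, so the lack of a call does not show that the compounds act alike on these genes.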

How the data were processed

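RNA-seq libraries of mouse liver total RNA were analysed, 3 from each of 3 treatments. The authors deposited 1 table with a read count and an FPKM value per gene and library. STAR 2.5, TopHat, HTSeq 0.6.1, DESeq2 and edgeR appear in the submitters' processing notes, without their roles; the sources used here do not give genome build, annotation, strand setting or the handling of multiply matching reads. Deposited FPKM values served only to derive gene length, as count, FPKM and library total give it (a whole number within 0.01 for 99.995% of values). Of 35275 entries, 126 share a name with another and 27 have names turned into dates. Counts of the 9 libraries were fitted with edgeR 4.0.16 (R 4.3.3): TMM scaling, filterByExpr, 1 mean for each treatment, quasi-likelihood F test, Benjamini-Hochberg adjustment, calls at 0.05. limma 3.58.1 (voom) and DESeq2 1.42.0 were alternatives, as were other scalings, filters, sample sets, a thinned vehicle 1 and a removed length trend. The scripts were tested on simulated counts. Library totals ran from 13942322 to 39473195.

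The treatments compared, the members and 67 gene lists (1595 of 1604 symbols found, 37 of them through another symbol) were chosen with earlier results of these data known. Genes were named by rule: called genes with the largest differences, folds and folds among abundant genes, genes near 0 in only 1 group, up to 5 called members of each list and direction by lowest p, and the adiponectin receptors whatever their test. Cell type markers were thus named from called members, while the counts of each list cover all its tested members. Those named for the largest differences or folds also had to show no overlap between the AdipoRonPEG5 and vehicle libraries.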

Additional observations from a re-analysis of the deposited data

How the results depend on the processing

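Of 319 called genes that the naming rule covers, 319 kept their call with RLE size factors, 289 with total-count scaling, 316 with DESeq2, 309 with limma-voom, 311 with vehicle 1 thinned and 316 with a length trend removed; none changed direction in any of the 20 alternatives. With 1 library left out, the calls kept of these 319 were 237 without vehicle 2, 244 without AdipoRonPEG5 2 and 248 without AdipoRonPEG5 3. They were 260 without AdipoRonPEG5 1, 277 without vehicle 1, 295 without vehicle 3, and 301 to 314 without an AdipoRon library. Without both vehicle 3 and AdipoRonPEG5 1, 266 were kept. With total-count scaling 584 genes were lower than with vehicle, against 1004. Leaving out 1 library at a time gave 800 to 1288 genes higher and 536 to 1046 lower than with vehicle, and 135 to 551 higher and 98 to 481 lower than with AdipoRon. The causes were not tested. Same-numbered libraries of different groups did not deviate together (correlations from -0.268 to 0.0772). Differently numbered ones ran from -0.299 to 0.316. These are deviations from means of 3 libraries, so they cannot exclude that libraries were paired. With a replicate block 1044 genes were higher and 719 lower than with vehicle, 190 higher and 148 lower than with AdipoRon, and 281 of the 319 named calls were kept. The block took falls of ABC transporters from 5 to 2 and of P450s of families 1 to 3 from 6 to 3. It took peroxisome rises from 4 to 1 and falls from 9 to 5. Rises and falls of the adiponectin receptor list each went from 2 to 1, and iron and heme falls from 1 to 0. The settings named with single lists and genes in the text leave this block out. Most T cell, B cell and neutrophil markers had too few counts to pass the filter and were not tested.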

Other observations

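Peroxisomes break down very long fatty acids, urate and glyoxylate. Of 45 tested (of 46 listed) peroxisome genes 9 fell and 4 rose, where 7.63% of all tested genes fell and 9.55% rose. The peroxisome rises are thus near the general share. Agxt, which removes glyoxylate, was at 292, 264 and 339 CPM with vehicle and 169, 148 and 155 CPM with AdipoRonPEG5 (log2 fold change -0.92, SE 0.11, adjusted p = 0.000595). Uox, the urate oxidase, was at 2378, 2076 and 1805 CPM with vehicle and 1341, 1533 and 1306 CPM with AdipoRonPEG5 (log2 fold change -0.58, SE 0.12, adjusted p = 0.00700). Pex6, an ATPase that recycles the import receptor, was at 191, 195 and 175 CPM with vehicle and 134, 131 and 148 CPM with AdipoRonPEG5 (-0.44 ± 0.078), and the groups of these 3 genes did not overlap. Pex26, which anchors Pex6 to the membrane, rose from 39.7, 44.8 and 39.9 CPM to 69.6, 60.6 and 52.3 CPM (0.55 ± 0.12). The number of falls was 5 without vehicle 2 or AdipoRonPEG5 2. That of rises was 1 without vehicle 2 or AdipoRonPEG5 1, 2 or 3, and 2 without both vehicle 3 and AdipoRonPEG5 1.

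Of 24 tested (of 26 listed) cell death genes 4 rose and 2 fell, where 9.55% of all tested genes rose and 7.63% fell. The cell death falls are thus near the general share. Mcl1, an inhibitor of apoptosis, was at 103.1, 107 and 107 CPM with vehicle and 129.6, 138 and 135 CPM with AdipoRonPEG5 (log2 fold change 0.34, SE 0.066, adjusted p = 0.00602). Cflar, an inhibitor of caspase-8 activation, fell from 147, 142 and 126 CPM to 87.2, 88.1 and 92.9 CPM (log2 fold change -0.63, SE 0.12, adjusted p = 0.00585). Mlkl, the executor of necroptosis, was at 3.60, 2.54 and 4.46 CPM with vehicle and 8.39, 6.54 and 9.19 CPM with AdipoRonPEG5 (1.18 ± 0.25). No overlap was present in the 3 genes. The number of rises was 2 without vehicle 1 or AdipoRonPEG5 2, and 8 with total-count scaling. That of falls was 1 without vehicle 2, AdipoRon 2 or AdipoRonPEG5 1, 2 or 3, or without both vehicle 3 and AdipoRonPEG5 1, or with total-count scaling or limma-voom.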
